A study of Mus musculus with 6 samples.

Results

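Transcripts of the T cell receptor (TCR) gamma and delta loci were examined in thymic natural killer (NK) cells of the mouse, taken by flow sorting. The genes were 1 delta constant gene (Trdc), 3 gamma constant genes (Trgc1, Trgc2 and Trgc4) and 3 gamma variable genes (Trgv1, Trgv2 and Trgv3). They were chosen by symbol and are 7 of the 26332 genes in the count table. RNA-seq libraries covered 2 groups of C57BL/6 mice of unstated age, 4 wild type (WT) and 2 with Tcf7 knocked out (KO), each library from a separate mouse. TCF-1, the protein Tcf7 encodes, is a transcription factor that acts early in T cells and in innate lymphoid cells. The male mice were WT 1, WT 3 and KO 1, and the female mice WT 2, WT 4 and KO 2. The sort kept NK1.1+ NKp46+ cells and removed cells with surface TCRbeta, CD3 or CD8 or with CD1d tetramer binding. It did not name TCRgamma or TCRdelta, which reach the cell surface together with CD3. The labels do not say how the Tcf7 allele was made or whether it was deleted in all cells.

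A gamma or delta chain gene is assembled during T cell development: recombination joins a variable (V) segment to a joining (J) segment, with a diversity (D) segment between them in the delta locus, and the joined exon is spliced to a constant (C) gene. The constant gene encodes the part of the chain next to the membrane, and the variable segment the part that meets antigen. Mouse gamma segments lie in cassettes, each with its own constant gene and J segment, so the constant gene shows which cassette was transcribed. Unrearranged segments can also be transcribed (germline transcripts), and such transcripts of receptor constant genes are known from NK cells and other lymphoid cells that carry no TCR. A count per gene does not separate a germline transcript from a rearranged one.

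The members of each family are close copies, which sets how well reads can be assigned to one of them. The first exons of the 4 gamma constant genes were aligned over 330 coding bases (GENCODE M21 transcripts, GRCm38, the same build as mm10). Trgc1 and Trgc2 were identical at 97.3% of these bases, Trgc1 and Trgc4 at 82.1%. The first 120 bases of this exon are given below for Trgc1 (chr13:19214103-19214222, plus strand), Trgc2 (chr13:19307432-19307551, minus strand), Trgc3 (chr13:19260885-19261004, plus strand), the constant gene outside the listed set, and Trgc4 (chr13:19344558-19344677, plus strand). Capitals mark bases that differ from Trgc1, of which there were 2 in Trgc2, 4 in Trgc3 and 14 in Trgc4.
Trgc1: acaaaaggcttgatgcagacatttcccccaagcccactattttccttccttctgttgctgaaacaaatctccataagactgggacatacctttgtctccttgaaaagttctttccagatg
Trgc2: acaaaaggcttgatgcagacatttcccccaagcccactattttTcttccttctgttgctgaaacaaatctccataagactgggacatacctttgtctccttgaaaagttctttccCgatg
Trgc3: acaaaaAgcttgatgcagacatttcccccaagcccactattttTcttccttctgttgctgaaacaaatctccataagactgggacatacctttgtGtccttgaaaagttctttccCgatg
Trgc4: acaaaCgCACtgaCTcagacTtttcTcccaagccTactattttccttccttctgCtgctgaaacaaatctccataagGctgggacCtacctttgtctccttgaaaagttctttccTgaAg

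The 3 variable genes were as close to each other. Their second exons, which hold most of the variable domain, were identical at 94.5% (Trgv2 and Trgv3) to 95.8% (Trgv1 and Trgv3) of aligned bases. The last 120 bases are given below for Trgv1 (chr13:19340335-19340454, plus strand), Trgv2 (chr13:19336573-19336692, minus strand) and Trgv3 (chr13:19243182-19243301, plus strand), with capitals at bases that differ from Trgv1. There were 6 such bases in Trgv2 and 1 in Trgv3, although the cassettes of Trgv1 and Trgv3 are different ones.
Trgv1: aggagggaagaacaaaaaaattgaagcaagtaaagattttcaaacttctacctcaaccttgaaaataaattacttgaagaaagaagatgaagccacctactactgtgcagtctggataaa
Trgv2: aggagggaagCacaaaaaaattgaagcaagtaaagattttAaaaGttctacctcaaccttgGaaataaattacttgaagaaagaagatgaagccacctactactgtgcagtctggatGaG
Trgv3: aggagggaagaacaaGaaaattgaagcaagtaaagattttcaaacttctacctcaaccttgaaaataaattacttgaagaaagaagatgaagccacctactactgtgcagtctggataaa

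To see how much of each gene a single read can tell from its copies, every stretch of 75 bases in the GENCODE transcripts was looked up in all other transcripts. All stretches of Trgc4 and Trgv2 were unique (100%). The share was 82.4% for Trgc1 and 90.8% for Trgc2, whose other stretches recur in each other or in Trgc3. It was 90% for Trgv1 and 89.3% for Trgv3, which share the rest with each other, and 95.7% for Trdc. These shares cover whole GENCODE transcripts, while the deposited lengths of the constant genes were shorter. They were 518 against 924 bases for Trgc1, 503 against 914 for Trgc2 and 1105 against 3865 for Trdc. Shares within the counted bases were not computed and may be lower. Values that separate Trgc1, Trgc2 and Trgc3 from each other, or Trgv1 from Trgv3, are therefore less certain than those of Trgc4, Trgv2 and Trdc. They also depend on how the counting treated reads with several matches, which is not given in the sources used here.

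Total counts were 16418910 to 31155303 per library, and 3 counts, taken as the limit of detection, correspond to 0.0963 to 0.183 CPM, the count scaled to a common library size. The 7 genes together held 3363 to 12079 counts in the WT libraries, 12263 in KO 1 and 13846 in KO 2. Tcf7 itself was at 811 to 947 CPM in WT, 268 CPM in KO 1 and 452 CPM in KO 2, a fall of 1.35 on the log2 scale (SE 0.17, adjusted p = 2.94e-03), so its transcript was lower but present in the KO libraries. The labelled cell type was checked on 12 NK cell genes, none of which was at 0 in any library. Ncr1, which encodes the sort marker NKp46, was at 821 to 1037 CPM in WT, 983 CPM in KO 1 and 740 CPM in KO 2. Klrb1c, which encodes the sort marker NK1.1, was lower in both KO libraries than in any WT library. It had 1555 to 1705 CPM in WT, 1270 CPM in KO 1 and 1084 CPM in KO 2 (-0.48, adjusted p = 0.0149). The NK genes sum to 15590 to 16280 CPM in WT, 15200 CPM in KO 1 and 12880 CPM in KO 2. Of the 12, 3 fell and 9 were not called, and Eomes, an NK cell transcription factor gene, fell the most of them (-2.11, adjusted p = 1.59e-03).

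All 7 genes passed the filter on low counts. Compared with WT, 3 of the 7 rose in KO: Trgc1, Trgc2 and Trgv3, all of the gamma locus. The other 4, Trdc among them, did not pass the test. All 7 log2 fold changes were above 0, so none was lower by edgeR at any p, and none was called lower by DESeq2 or limma voom. Over all 13652 genes tested, 8.13% were called higher and 5.58% lower in KO (edgeR quasi-likelihood test, sex as a term, Benjamini-Hochberg adjusted p under 0.05). Of these calls 59.3% were higher, and 71.9% with scaling to library totals alone. For 5 of the 7 genes both KO libraries lay above all 4 WT libraries, an arrangement found in 20.5% of all tested genes (18.8% in the opposite direction). The median log2 fold change of the 7 was 2.17, against 0.02 over all genes tested. The number of the 7 called higher was 6 without WT 2, 1 without KO 1 and 2 without KO 2.

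**Figure D1:**
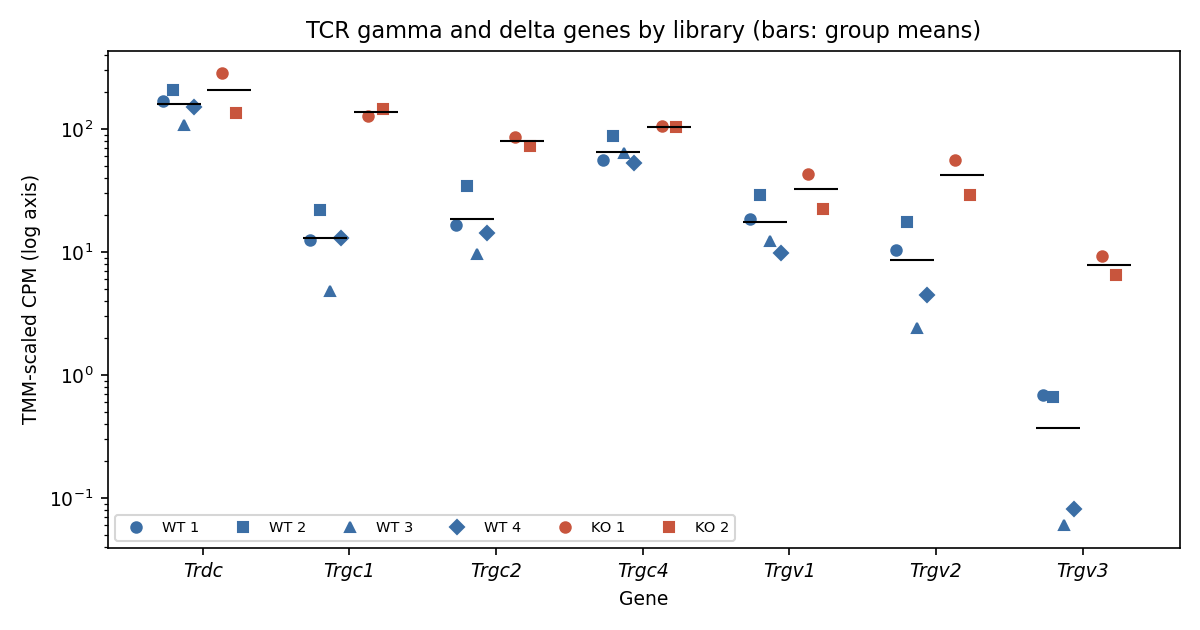
TMM-scaled CPM (log axis) of the 7 genes in each of the 6 libraries; points are libraries, blue for WT and red for KO, and bars are group means. Both KO libraries lie above all WT libraries for Trgc1, Trgc2, Trgc4, Trgv2 and Trgv3, while the groups overlap for Trdc and Trgv1.

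Trdc, the only constant gene of the delta chain, lies at chr14:54142851-54146108 inside the TCR alpha locus. It had 170, 207, 109 and 151 CPM in WT 1 to WT 4, and 283 CPM in KO 1 and 135 CPM in KO 2. KO 1 was above every WT library, and KO 2 was within the WT range. The means were 159 ± 41.0 CPM (SD, n = 4) in WT and 209 ± 105 CPM (SD, n = 2) in KO. The difference, 0.37 on the log2 scale (SE 0.33, adjusted p = 0.510), was smaller than the spread between the KO libraries. Its sign rests on KO 1, since without that library it was -0.42. In bulk libraries such as these, fewer cells that express a gene and less RNA per cell cannot be told apart.

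Trgc1, the constant gene of the first cassette (chr13:19214103-19216618), rose the most of the 3 listed constant genes. It had 12.5, 21.9, 4.80 and 13.0 CPM in WT 1 to WT 4, against 127 CPM in KO 1 and 145 CPM in KO 2. The lowest KO library was thus several times the highest WT library, and WT 3 was the lowest of all. The log2 fold change was 3.46 (SE 0.36, adjusted p = 1.46e-03), from 13.1 ± 7.0 CPM (SD, n = 4) to 136 ± 12.9 CPM (SD, n = 2). Trgc1 was called in all 16 alternative analyses, with log2 fold changes of 3.03 to 3.84.

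Trgc2, the constant gene of the second cassette, lies in the opposite orientation (chr13:19305060-19307551, minus strand). Trgc2 counts gave 16.5, 34.5, 9.54 and 14.3 CPM in WT 1 to WT 4, and 86.5 CPM in KO 1 and 72.8 CPM in KO 2. Both KO libraries were above all WT libraries, with WT 2 the nearest. The log2 fold change was 2.17 (SE 0.39, adjusted p = 0.0121). The call was lost without KO 1 (1.56, adjusted p = 0.121) and with edgeR's robust option (adjusted p = 0.0577).

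Trgc4, the constant gene of the fourth cassette (chr13:19344558-19352343), was the gamma constant gene with the most counts in every WT library. It had 55.8, 87.2, 64.1 and 53.4 CPM in WT 1 to WT 4, against 106 CPM in KO 1 and 103 CPM in KO 2. The KO libraries again lay above all WT libraries, but the distance was small. Its log2 fold change of 0.69 (SE 0.19) missed the threshold (adjusted p = 0.0537). The gene was called in 9 of the 16 alternatives, with values of 0.55 to 0.88.

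Because reads can move between near-identical copies, the 3 listed constant genes were also summed and tested as a single gene in the same fit. The sum was 84.8, 144, 78.4 and 80.7 CPM in WT 1 to WT 4, and 320 CPM in KO 1 and 321 CPM in KO 2. The KO libraries were almost equal, and WT 2 was the highest WT library. The summed level rose by 1.75 on the log2 scale (SE 0.21, adjusted p = 2.78e-03), and by 1.78 with Trgc3 added to the sum (adjusted p = 2.67e-03), which was chosen after seeing the data.

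The make-up of these constant gene counts did not overlap between the groups for Trgc4 and Trgc1. As a share of the counts of the 3 listed constant genes, Trgc4 had 65.8%, 60.7%, 81.7% and 66.2% in WT 1 to WT 4, but 33.2% in KO 1 and 32.1% in KO 2. Trgc1 made up 14.8%, 15.3%, 6.12% and 16.1% in WT 1 to WT 4, and 39.8% in KO 1 and 45.2% in KO 2. Trgc4 was the largest part in all WT libraries, and Trgc1 the largest in both KO libraries. The difference in mean share, KO minus WT, was -35.95 percentage points for Trgc4 and 29.4 for Trgc1 (exact two-sided permutation test over 6 libraries, p = 0.0667 for each, the smallest p that 15 regroupings allow, and 0.10 adjusted over 6 such ratios). A design of 4 against 2 libraries cannot reach 0.05 in this test. The share of Trgc2 was 12.2% to 24.0% in WT, 27.1% in KO 1 and 22.7% in KO 2, and overlapped (exact permutation p = 0.267).

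The same split was seen when each cassette was counted with its variable and joining segments, 15 gamma genes in all and 1788 to 12406 counts per library. The fourth cassette (Trgc4 with Trgv1 and Trgj4) held 64.3% ± 9.79 (SD, n = 4) of gamma locus counts in WT and 29.2% ± 0.65 (SD, n = 2) in KO. The first (Trgc1 with Trgv4 to Trgv7 and Trgj1) held 16.3% ± 4.38 in WT and 42.3% ± 4.99 in KO. The second (Trgc2 with Trgv2 and Trgj2) held 18.6% ± 5.51 in WT and 25.1% ± 3.92 in KO, and the third (Trgc3 with Trgv3 and Trgj3) 0.80% ± 0.37 in WT and 3.43% ± 0.42 in KO. These shares include the constant gene counts given above and are not independent of them.

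**Figure D2:**
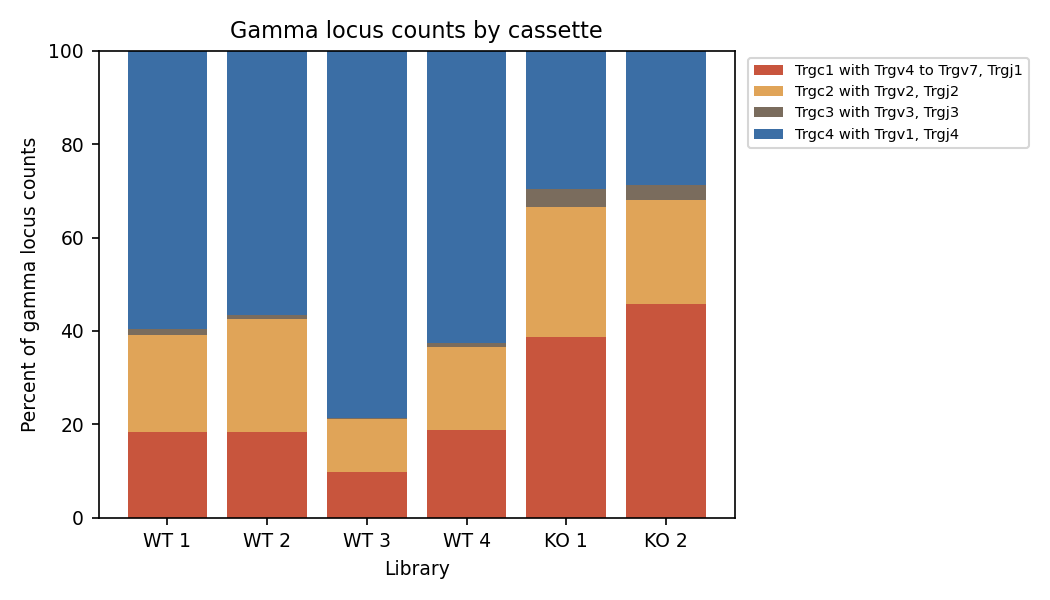
Percent of all gamma locus counts (y axis, 15 genes) that fell in each of the 4 cassettes, by library; each stacked bar is a library. The cassette of Trgc4 takes 56.5% to 78.5% in the WT libraries and 28.8% to 29.7% in the KO libraries, and the cassette of Trgc1 9.73% to 18.8% and 38.8% to 45.8%.

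The 3 variable genes spanned a wide range of levels. Trgv1, the variable segment of the fourth cassette (chr13:19340016-19340454), had 18.6, 29.3, 12.3 and 9.85 CPM in WT 1 to WT 4, and 42.9 CPM in KO 1 and 22.4 CPM in KO 2. KO 2 lay below WT 2, so the groups overlapped. Its log2 difference of 0.87 (SE 0.45) did not pass the test (adjusted p = 0.248). Trgv1 was called in 1 of 16 alternatives, without WT 2 (1.35). Leaving out KO 1 gave 0.18 (adjusted p = 0.894), and leaving out KO 2 gave 1.46.

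Trgv2, the variable segment of the second cassette (chr13:19336573-19337026, minus strand), had 10.3, 17.5, 2.40 and 4.48 CPM in WT 1 to WT 4, against 55.6 CPM in KO 1 and 29.1 CPM in KO 2. Both KO libraries were above all WT libraries, but KO 1 was nearly double KO 2 and the WT libraries differed more still. The log2 fold change was 2.31 (SE 0.67, adjusted p = 0.0611). It was called in 6 of the 16 alternatives, among them without WT 2 (2.93) and, chosen after seeing the data, without WT 3 and WT 4 (1.57, adjusted p = 0.0357). Without KO 1 it was at 1.39 (adjusted p = 0.407).

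Trgv3, the variable segment of the third cassette (chr13:19242845-19243301), was the rarest of the 7 and had the largest fold change. Its raw counts were 17, 20, 1 and 2 in WT 1 to WT 4, 159 in KO 1 and 174 in KO 2. These are 0.688, 0.659, 0.060 and 0.081 CPM in WT 1 to WT 4, 9.22 CPM in KO 1 and 6.46 CPM in KO 2. WT 3 and WT 4 were under the limit of 3 counts, and both KO libraries were far above every WT library. Trgv3 rose by 4.29 on the log2 scale (SE 0.81, adjusted p = 0.0147), a call that was lost without KO 1 (adjusted p = 0.125) and without KO 2 (adjusted p = 0.0825). Its constant gene Trgc3 also rose, from 0.78 ± 0.37 CPM (SD, n = 4) to 9.0 ± 1.54 CPM (SD, n = 2), by 3.51 on the log2 scale (adjusted p = 5.00e-03). Trgj3 had at most 2 counts in any library. Only 82.1% of the 75-base stretches of Trgc3 were unique, and the rest recur in Trgc1 or Trgc2. Both of these had far higher levels in KO, and whether their reads add to the Trgc3 value was not tested.

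Summed, the 3 variable genes had 29.6, 47.5, 14.8 and 14.4 CPM in WT 1 to WT 4, and 108 CPM in KO 1 and 58.0 CPM in KO 2. The groups did not overlap, but KO 2 was close to WT 2. The log2 fold change of the sum was 1.63 (SE 0.50, adjusted p = 0.0714), 2.16 without WT 2 (adjusted p = 5.36e-03) and 0.89 without KO 1 (adjusted p = 0.472).

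Ratios within a library do not depend on scaling. The counts of the 3 variable genes per count of the 3 constant genes were 0.350, 0.330, 0.188 and 0.179 in WT 1 to WT 4, and 0.337 in KO 1 and 0.18 in KO 2. WT 1, WT 2 and KO 1 were alike and higher, and WT 3, WT 4 and KO 2 were alike and lower, a split that followed neither genotype nor sex. The difference in the mean log2 ratio was -0.02 (exact two-sided permutation p = 0.867). Constant gene counts were higher in both KO libraries, but a difference in this ratio was not detectable with these libraries. The ratio leaves out Trgv4 to Trgv7, of the cassette of Trgc1, while Trgc1 counts are in it. Trgv4 had 55 to 386 counts in WT, 903 in KO 1 and 899 in KO 2. The ratio over all gamma segments was not computed, and its split of the libraries may differ.

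The ratio of the delta to the gamma constant genes did not overlap between the groups. Trdc counts per gamma constant count were 2.01, 1.44, 1.39 and 1.87 in WT 1 to WT 4, and 0.887 in KO 1 and 0.419 in KO 2. In raw counts, Trdc thus outnumbered the summed gamma constant genes in every WT library and in neither KO library. Trdc is the longer gene, with a deposited length of 1105 bases against 503 to 571 for these gamma constant genes. The ratio can therefore be compared between libraries, but its size does not give the order of levels per length. The mean log2 ratio was 1.44 lower in KO, written as a difference of -1.44 (exact two-sided permutation p = 0.0667, the smallest possible, 0.10 adjusted over the 6 ratios). Relative to the summed counts of Cd3d, Cd3e and Cd3g, which encode signalling chains that a TCR needs at the surface, Trdc was again lower in both KO libraries than in any WT library. In CPM, Trdc itself was not below the WT range in either KO library. The log2 fold changes were 0.37 for Trdc, 0.26 for Cd3d, 1.32 for Cd3e and 1.38 for Cd3g, none of them called. The ratio to their summed counts was 0.784 to 1.13 in WT, 0.576 in KO 1 and 0.525 in KO 2, a log2 difference of -0.69 (exact permutation p = 0.0667, 0.10 adjusted).

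**Figure D3:**
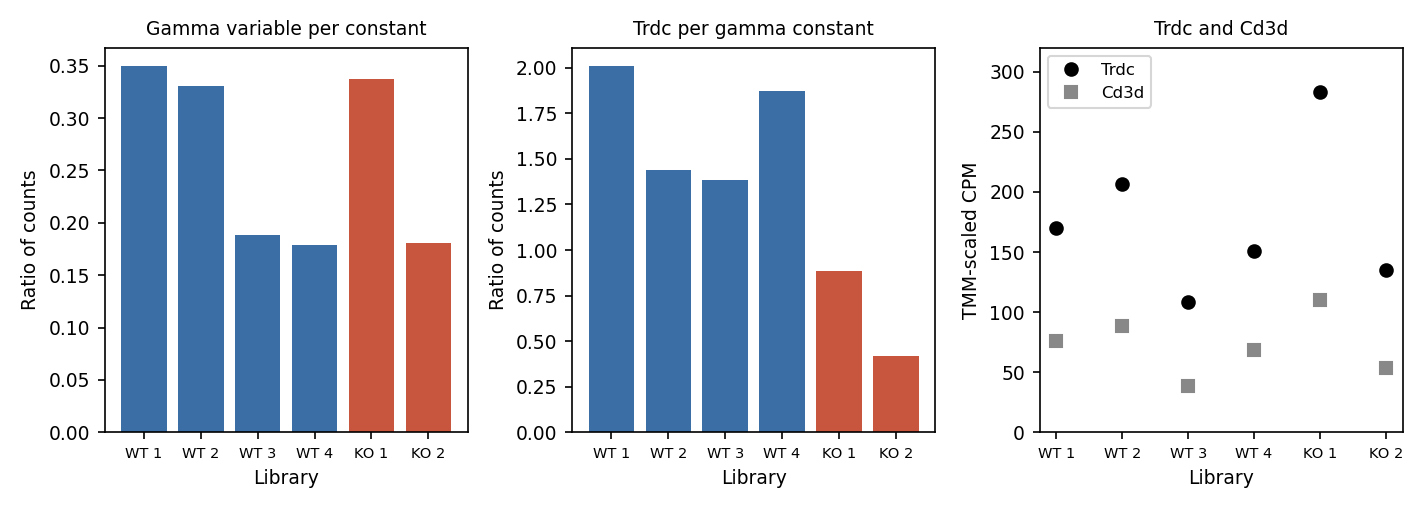
Gamma variable counts per gamma constant count (left), Trdc counts per gamma constant count (middle), and TMM-scaled CPM of Trdc and Cd3d (right), in each library, with WT in blue and KO in red in the bar panels. The left ratio is near 0.33 to 0.35 in WT 1, WT 2 and KO 1 and near 0.18 in the other libraries, and the middle ratio is 1.39 or more in WT and 0.887 or less in KO.

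Levels of different genes were compared per length, as CPM per kb of the deposited gene length. In WT the order was Trdc (144 ± 37.1), Trgc4 (114 ± 27.0), Trgv1 (50.5 ± 25.0), Trgc2 (37.2 ± 21.7), Trgc1 (25.2 ± 13.5), Trgv2 (24.8 ± 19.4) and Trgv3 (1.05 ± 0.99; all SD, n = 4). Trgc4 and Trgv1 did not overlap over the WT libraries, nor did Trgv2 and Trgv3, and the ranges of the other neighbours in the order overlapped. Within each WT library, however, Trgc2 was above Trgc1. In KO the order was Trgc1 (263 ± 24.9), Trdc (189 ± 95.1), Trgc4 (183 ± 3.33), Trgc2 (158 ± 19.3), Trgv2 (121 ± 53.5), Trgv1 (94.1 ± 41.8) and Trgv3 (22.2 ± 5.52; all SD, n = 2). Here Trgc4 and Trgc2 did not overlap, nor did Trgv1 and Trgv3, while the ranges of the other neighbours did. Within each KO library, Trgc2 was above Trgv2, and Trgv2 above Trgv1. Trgc1 thus stood behind Trdc, Trgc4, Trgv1 and Trgc2 in the WT means and ahead of all of them in the KO means, although in KO 1 Trdc (256.5) was above Trgc1 (245.4). The deposited lengths of the constant genes are shorter than the GENCODE transcripts (518 against 924 bases for Trgc1, 1105 against 3865 for Trdc), so reads that lie wholly in the omitted 3' ends would not be counted.

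The count table holds 28 further gamma or delta segments, and 22 of them passed the filter. In the gamma locus 8 of 9 were tested and 4 rose: Trgv4 (2.51, adjusted p = 0.0132), Trgv5 (3.25, adjusted p = 9.01e-03), Trgj1 (3.64, adjusted p = 4.96e-03) and Trgc3. Trgv4, Trgv5 and Trgj1 belong to the cassette of Trgc1, and Trgv5 encodes the variable region of the gamma chain of epidermal T cells. Trgv4 had 3.30 to 12.7 CPM in WT, 52.3 CPM in KO 1 and 33.4 CPM in KO 2, and Trgv5 0.606 to 2.77 CPM in WT, 10.3 CPM in KO 1 and 21.7 CPM in KO 2. Both segments were above all WT libraries in both KO libraries, Trgv4 with its higher value in KO 1 and Trgv5 in KO 2.

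Of the remaining gamma segments, Trgv7 (2.48), Trgv6 (2.12), Trgj2 (2.10) and Trgj4 (0.24) did not pass the test. Trgj4, the joining segment of the Trgc4 cassette, was at 3.28 to 7.86 CPM in WT, 5.74 CPM in KO 1 and 6.80 CPM in KO 2, and so overlapped. Trgj1, of the Trgc1 cassette, was at 0.240 to 0.888 CPM in WT, 9.56 CPM in KO 1 and 6.39 CPM in KO 2. Among the 3 joining segments tested, the fitted fold changes fell in the order of the constant genes of their cassettes, Trgj1 highest and Trgj4 lowest, although the differences between them were not tested. Over all 14 gamma genes tested, 7 were called higher and none lower, with a median log2 fold change of 2.40 and no value under 0.

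In the delta locus few segments were called. Of 20 delta segments, counting those of the alpha locus that can also join to delta (named with -dv), 15 were tested, 1 rose, 1 fell and 13 were not called, with a median of 0.20. Over all genes tested 8.13% were called higher and 5.58% lower, and 1 call each way among 15 is close to those shares. Trdv2-2, a delta variable segment, fell by 1.57 on the log2 scale (SE 0.27, adjusted p = 9.63e-03), from 26.0 to 32.0 CPM in WT to 12.8 CPM in KO 1 and 6.80 CPM in KO 2. Not called were Trdv4 (0.25), Trdv5 (0.20), Trdv1 (0.13), Trdv2-1 (-0.99), Trdd2 (0.61), Trdj1 (-0.07) and Trdj2 (0.97). The same held for Trav15-1-dv6-1 (0.12), Trav15-2-dv6-2 (1.94), Trav15d-1-dv6d-1 (2.18), Trav13-4-dv7 (-0.81) and Trav21-dv12 (-0.36). Trdj1 and Trdj2 join to Trdc, and Trdj1 was at 6.12 to 10.2 CPM in WT, 6.61 CPM in KO 1 and 8.88 CPM in KO 2.

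The segment that rose was Trav14d-3-dv8, which had 0 counts in all 4 WT libraries and 2978 counts in KO 1 and 8253 in KO 2. These are 173 and 307 CPM, and their mean of 239.5 CPM is at least 1331-fold higher than a limit of 3 counts in the WT library where that limit is highest (0.18 CPM). Its level per length in KO, 664 ± 262 CPM per kb (SD, n = 2), was above that of Trdc in each KO library. As the segment can join to alpha as well as to delta, its counts do not show which chain it was part of. The alpha constant gene Trac rose in the same libraries, from 30.4 ± 10.3 CPM (SD, n = 4) to 405 CPM in KO 1 and 636 CPM in KO 2 (4.11, adjusted p = 9.41e-05).

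**Figure D4:**
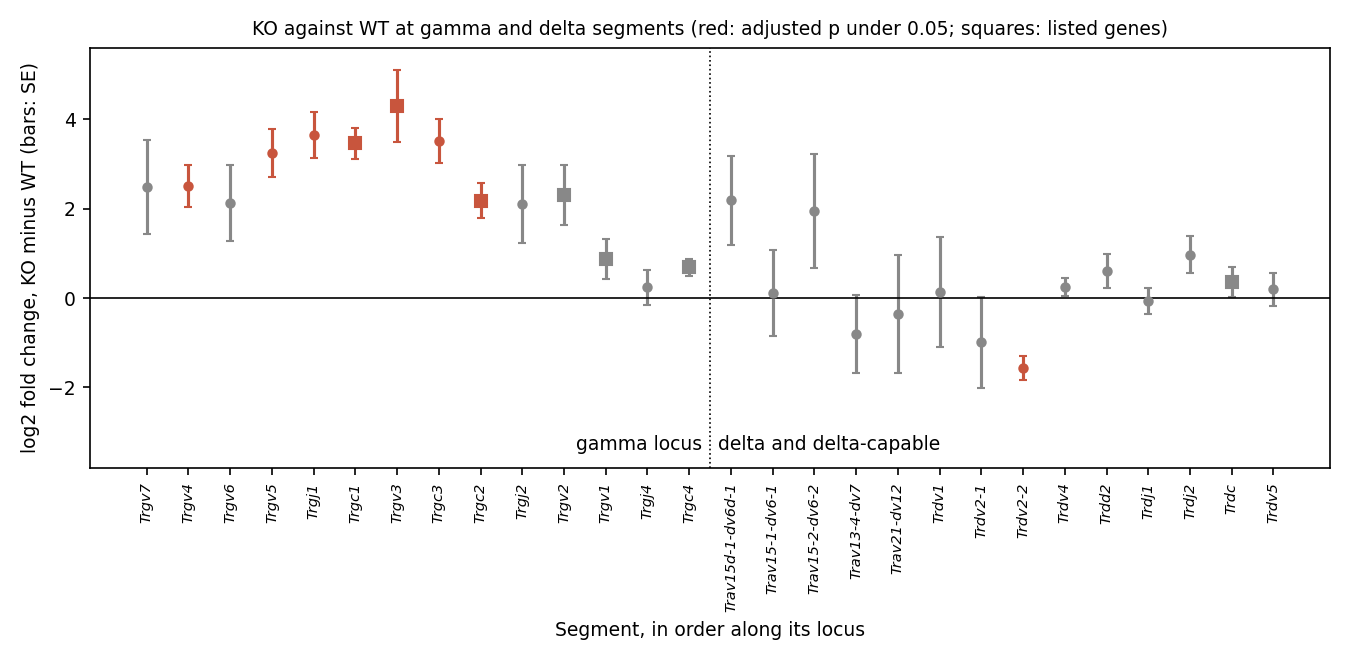
Log2 fold change, KO minus WT, of the tested gamma and delta segments (y axis, bars are SE), in their order along each locus (x axis); red marks an adjusted p under 0.05 and squares the 7 listed genes. The gamma genes lie between 0.24 and 4.29, and the delta segments lie on both sides of 0. Trav14d-3-dv8, with 0 counts in WT, is not drawn.

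Genes that border the loci were read in the same fit. Amph, the amphiphysin gene and the nearest tested gene before the gamma locus at a distance of 24.0 kb, had 0 to 0.330 CPM in WT, 10.03 CPM in KO 1 and 10.1 CPM in KO 2 (6.34, SE 0.69, adjusted p = 1.75e-03). Stard3nl, 5.33 kb beyond Trgc4 at the other end, was at 33.5 to 37.2 CPM in WT and 37.9 and 41.0 CPM in KO, and was not called (0.17). Further out, Vps41 (-0.14) and Epdr1 (2.73, adjusted p = 0.115) were not called either. Amph, at the end of the gamma locus that holds the Trgc1 cassette, was thus its only called neighbour, and Vps41 lies on the same side. Over all tested genes 8.13% were called higher, and whether the place of Amph matters was not tested. Around the alpha and delta locus, Dad1, 11.3 kb beyond it, fell by 0.45 (adjusted p = 0.0373), and Abhd4 (0.20), Sall2 (0.07) and Mettl3 (0.18) were not called.

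Of 14 genes of CD3 and proximal TCR signalling, 4 rose, 1 fell and 9 were not called, with a median of 0.31. For this list, the NK list above and the lists below, the shares over all genes tested were 8.13% higher and 5.58% lower. Ptcra, which encodes the pre-TCR alpha chain, rose from 0.945 ± 0.278 CPM (SD, n = 4) to 2.38 CPM in KO 1 and 33.7 CPM in KO 2 (3.67, adjusted p = 0.0188), so its mean rests on KO 2. Plcg1, a phospholipase downstream of the receptor, had 4.92 to 13.3 CPM in WT and 41.0 and 44.6 CPM in KO (2.34, adjusted p = 1.41e-03). Cd3d (0.26), Cd3e (1.32, adjusted p = 0.0970) and Cd3g (1.38, adjusted p = 0.0566) were not called. Cd3e, whose protein the sort selected against, was at 18.1 to 74.9 CPM in WT, 131 CPM in KO 1 and 82.3 CPM in KO 2, above all WT libraries in both.

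In the list of V(D)J recombination 2 of 14 genes rose, and the median of the 14 was 0.35. The 2 were the DNA repair genes Xrcc6, which encodes Ku70 (0.96, adjusted p = 0.0246), and Dclre1c, which encodes Artemis (0.81, adjusted p = 0.0185). Rag1, of the recombinase itself, was at 4.25 to 62.4 CPM in WT, 20.2 CPM in KO 1 and 322 CPM in KO 2, with an adjusted p of 0.0514. Only KO 2 stood above the WT range for it. Of 21 regulators of receptor loci, 1 rose, 3 fell and 17 were not called, with a median of -0.02. Bcl11b, a transcription factor gene of T cell commitment, rose (1.59, adjusted p = 1.14e-03), and Jak1, a kinase of the IL-7 receptor pathway, fell by 1.14 (adjusted p = 4.35e-04). Il7r, whose signal through STAT5 is known to open the gamma locus, was at 244 to 501 CPM in WT and 312.6 and 457.9 CPM in KO (0.07, adjusted p = 0.885), and Stat5a (0.08) and Stat5b (-0.17) were not called.

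Marker genes of other cell types moved in the same libraries as the gamma genes, and their part in the results was not tested. Of 13 genes of IL-17-type gamma-delta T cells, 11 were tested and 10 rose, with a median of 3.64. Il1r1, an IL-1 receptor gene, had 0.081 to 0.969 CPM in WT and 9.74 and 37.4 CPM in KO (5.47, adjusted p = 4.27e-04). Also called were Sox13 (3.64), Blk (5.45), Cd163l1 (1.70) and 5830411N06Rik (1.54), while Etv5 was not (0.20). The list's summed level was 111 to 128 CPM in WT, 473 CPM in KO 1 and 634 CPM in KO 2. Its largest part was Maf, at 53.7 to 76.8 CPM in WT, 214 CPM in KO 1 and 316 CPM in KO 2. Il17a had 0 counts in all 6 libraries, and Il17f had counts only in KO 2, where there were 19. Some of these genes, Il1r1 among them, are also expressed by other innate lymphoid cells.

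Of 12 genes of innate-like gamma-delta T cells, 11 were tested, 2 fell and 9 were not called, with a median of -0.15. Cd27, a costimulatory receptor gene, fell by 1.03 (adjusted p = 0.0378) and Cd44 fell by 0.51 (adjusted p = 0.0238). Zbtb16, which encodes PLZF, was at 11.6 to 18.8 CPM in WT and 23.5 and 16.5 CPM in KO, and was not called. The summed level of this list was 867 to 1481 CPM in WT, 675 CPM in KO 1 and 754 CPM in KO 2, lower in both KO libraries than in any WT library. Its largest part was Cd44 (444 to 508 CPM in WT, 291 and 402 CPM in KO), except in WT 4. There Nr4a1 was at 567 CPM, against 51.5 to 58.7 CPM in the other WT libraries. Both KO libraries lay below all WT libraries for Cd27, Cd44 and Nr4a1, and above them for Cd5 (1.11) and Id3 (0.69), neither called. The other genes tested overlapped.

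Among alpha-beta constant and coreceptor genes 4 of 6 rose, and the median of the 6 was 3.37. Their summed level was 188 to 296 CPM in WT, 1085 CPM in KO 1 and 1813 CPM in KO 2, and none was at 0 in any library. Cd4 had 0.162 to 15.6 CPM in WT, 17.7 CPM in KO 1 and 71.6 CPM in KO 2 (3.96, adjusted p = 0.0144). The sort also selected against TCRbeta and CD8. Trbc2 had 70.2 to 101 CPM in WT and 473 and 941 CPM in KO (2.99, adjusted p = 1.61e-04), and Trbc1 was not called (-0.25). Cd8a had 1.78 to 20.1 CPM in WT and 79.5 and 64.4 CPM in KO (3.75, adjusted p = 0.0249), and Cd8b1 was not called (2.47). Of 8 B cell genes, 7 rose (median 4.71), and Ms4a1, which encodes CD20, had 0 to 1.57 CPM in WT, 44.2 CPM in KO 1 and 9.73 CPM in KO 2. The B cell sum was 376 to 425 CPM in WT, 567 CPM in KO 1 and 419 CPM in KO 2, mostly Ighm, which was not called (-0.08).

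Of 8 thymic stroma genes, 5 were tested and 4 rose (median 2.62, summed level 109 to 119 CPM in WT and 270 and 448 CPM in KO). Most of this sum was Pecam1, which leukocytes also express, at 103 to 113 CPM in WT, 245 CPM in KO 1 and 402 CPM in KO 2. Krt8 and Krt5, keratin genes of thymic epithelium, were at most 0.162 CPM in WT and at 0.966 to 8.47 CPM in KO. Of 8 myeloid genes, 7 were tested and did not pass, with adjusted p from 0.0665 (Fcgr1) to 0.810 (Cd68) and a median log2 fold change of 3.22. Their summed level was 325 to 446 CPM in WT, 413 CPM in KO 1 and 439 CPM in KO 2. Most of it was Itgam, which NK cells also express (-0.12).

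Among all tested genes outside the receptor loci, those closest in pattern to Trdc over the 6 libraries were sought by Euclidean distance between centred log2 CPM profiles. Cd3d was the fourth closest (distance 0.305, r = 0.97), after Aplp1 (0.203, r = 0.99), Gm16675 (0.266, r = 0.97) and Ttc41 (0.288, r = 0.96), and before Zfp72 (0.337, r = 0.95). Cd3d, which encodes CD3delta, had 75.7, 88.6, 38.3 and 68.3 CPM in WT 1 to WT 4, and 110 CPM in KO 1 and 53.6 CPM in KO 2. Like Trdc it was lowest in WT 3 and highest in KO 1. Closest to the summed gamma constant genes were Bcl2a1d (0.452, r = 0.98), Nt5e (0.513, r = 0.98), Hectd2 (0.530, r = 0.97), Mmp11 (0.532, r = 0.97) and Gbp6 (0.551, r = 0.97). Nt5e, which encodes the ectoenzyme CD73, had 37.6 to 67.0 CPM in WT and 151 and 159 CPM in KO. All points share the 6 libraries and their scaling, and these distances are a description only.

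With 1 KO library of each sex, a difference between the sexes and a difference between the 2 KO mice cannot be told apart. The genotype by sex product term was called for none of the 7 genes and for 0% of 13652 genes by edgeR, with 1368 genes at an unadjusted p under 0.05. For Trdc, the KO minus WT difference was 1.43 higher on the log2 scale in the male than in the female libraries (SE 0.43, unadjusted p = 0.0151, adjusted p = 0.423, edgeR quasi-likelihood test). DESeq2 called 128 genes for the same term, Trdc among them (1.44, adjusted p = 0.0312).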

How the data were processed

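The deposited values were whole-number read counts per Entrez gene for 6 libraries, not normalized. Per the labels' protocols, RNA was amplified with a low-input full-length kit that does not mark strand and was sequenced in paired-end mode. The tools were featureCounts and the mm10 build, per the submitters' processing notes, and which aligner came before is not given in the sources used here. Since strand was not kept, reads of overlapping or antisense genes cannot be told apart. The counts carry no molecular identifiers, so detection limits cover counting error only.

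Symbols and gene coordinates came from RefSeq (GRCm38.p6), which matched 25275 of 26332 IDs, and all 7 listed genes were found. The 1057 other IDs (0.623% of counts) stayed in the tests. The 6 single-sample files held identical counts. Within a group, library pairs had 8.86 to 62.2 chi-square units per degree of freedom, above counting noise, and none were merged.

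KO was compared with WT on all genes with edgeR 4.0.16 in R 4.3.3: TMM scaling, filterByExpr by genotype, glmQLFit and glmQLFTest, sex as a term, and Benjamini-Hochberg adjustment over 13652 genes with a threshold of 0.05. The fit had 3 residual and 4.50 prior degrees of freedom. Adjusted p of genes are edgeR's where no tool is named. CPM are TMM-scaled, and fold changes are KO minus WT. Shares and ratios were compared by exact two-sided permutation over libraries. The scripts were tested on simulated counts.

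The 7 genes, the gene lists and the rule for named genes were chosen with earlier results of these data known. The rule named the 7 genes, all other gamma and delta segments that passed the filter, the 2 called members of each list with the largest change (or the most expressed where none was called), the 5 genes closest in pattern to Trdc and to the summed gamma constant genes, and the 2 tested genes on each side of each locus. Other list members are named after their values were seen. A gene that the rule named is not reported here. The alternatives were RLE and library-total scaling, a minimum of 5 CPM in 2 libraries, no filter, a replicate block, no sex term, DESeq2 1.42.0, limma 3.58.1 (voom), robust quasi-likelihood and each library left out in turn. Exon sequences came from GENCODE M21. Promoter motifs were not analysed here.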

Additional observations from a re-analysis of the deposited data

Results flagged for a closer look

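The share of Trgc1 among the counts of Trgc1, Trgc2 and Trgc4 was 6.12% in WT 3, against 14.8% to 16.1% in the other 3 WT libraries. WT 3 lay far from them relative to the range of the group (gap over range 0.864). This was the only such case among 13 measures examined in the 4 WT libraries, where chance gives about 1 in 20. WT 3 was also the WT library with the fewest counts of the 7 genes (3363), but it had the fewest total counts of them too (16666151). Its Trgc1 share rests on 80 Trgc1 counts. Per library total, the 7 genes were at 202 CPM in WT 3 and 240 to 388 CPM in the other WT libraries. In CPM, WT 3 had the lowest Trdc, Trgc2 and Trgv2 of the WT libraries, and it had the highest share of Trgc4 (81.7%).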

How the results depend on the processing

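The number of the 7 genes called higher was 3, and 5 with no filter, with no sex term and with limma voom; it was 1 to 6 when libraries were left out in turn. No gene of the 7 was called lower under any alternative. All genes called numbered 1872, 2955 by DESeq2, and 934 to 1908 with a library left out. The summed variable genes (1.63, adjusted p = 0.0714) passed the threshold with no filter (1.63, adjusted p = 4.90e-03) and with limma voom (1.64, adjusted p = 0.0321), and ranged from 0.89 to 2.26 with a library left out. The summed constant genes kept their call throughout. The log2 difference in variable per constant counts changed sign without WT 1 (0.14), WT 2 (0.12) or KO 2 (0.43), and was -0.47 without KO 1. Trdc was at -0.42 without KO 1 and 1.02 without KO 2. DESeq2 called 1 of the 7 for the interaction and edgeR 0. The cause of these differences was not tested. WT 1 and KO 1, and WT 2 and KO 2, share only a number: their deviations correlated at 0.132 and -0.048 (with 2 KO libraries the deviations mirror each other). With this replicate block in place of sex, 4 of the 7 and 1341 of all genes were called, and Trgv2 was at 1.57 (adjusted p = 0.0493). With 1 KO library left out, the other is assumed to vary like the WT libraries. Levels under 0.0963 to 0.183 CPM were not detectable at this depth, and 2 KO mice limit every comparison.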
